A study of Ditylenchus destructor and Heterodera glycines and Meloidogyne incognita with 162 samples.

Results

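Single embryos of the southern root-knot nematode *Meloidogyne incognita* were compared between 2 late stages of life in the egg, 2-fold and Moving. The comparison used all libraries of both stages, 5 at 2-fold and 5 at Moving, which are 10 of the 54 *M. incognita* libraries and of the 162 libraries in the series, and it took in all 45320 genes of the count table. Each library is the whole RNA of 1 embryo of strain WHF4-1, from eggs freed from infected tobacco roots, with no treatment at either stage. Eggs were sorted by shape under the microscope, cut open and amplified with Smart-seq2, which copies polyadenylated RNA along its length and keeps neither strand nor molecule of origin. The study sampled more embryos of each stage than it kept, so the 5 embryos are a selected set, and no source at hand states that they came from separate cultures.

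At the 2-fold stage a nematode embryo has stretched to about 2 times the length of the egg and lies folded in the shell. At Moving the embryo is thinner, coiled, and twitches and turns. In *C. elegans* this span covers the first muscle contractions and the secretion of the first cuticle. *M. incognita* then moults inside the egg and hatches as a second-stage juvenile that invades roots. It reproduces without meiosis, and its genome holds several near-identical copies of many genes. Reads of one copy may be counted for another, which was not tested here. The files and reference tables give no name or function for the IDs of this species, so the genes are described here by their levels, stages and positions, and the planned marker lists for muscle, cuticle, gland cells, neurons and intestine were not used here.

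Moving embryos were marked by a small number of genes that filled much of the library, and 2-fold embryos by a different set. From 2-fold to Moving, 322 genes were higher and 272 lower of 20789 tested, which is 1.55% and 1.31% of the genes tested and 2.86% in either direction. The median change of the 322 was 5.61 on the log2 scale, and that of the 272 was -5.74, while the median over all tested genes was 0.01. The calls are from edgeR's quasi-likelihood test at a Benjamini-Hochberg adjusted p under 0.05, with counts scaled by TMM, which assumes that most genes do not change. With library totals as the only scaling, a setting chosen after seeing the data, 233 were higher and 346 lower, so the higher share of the calls was 40.2% in place of 54.2%, and the median over all tested genes stood at -0.48. No gene passed in opposite directions under any of the alternatives (0 of the 594 called genes). The alternatives reused libraries of this comparison, so this is not a separate check of direction. Within the 5 libraries that the study lists with over 80% of reads aligned, edgeR called 0 genes, with 1214 higher and 744 lower at an unadjusted p under 0.05. These are 2-fold replicates 2 and 5 and Moving replicates 2, 4 and 5. Within the 5 libraries under 80%, 2-fold replicates 1, 3 and 4 and Moving replicates 1 and 3, 150 were higher and 28 lower. Each class thus set 2 embryos of one stage against 3 of the other.

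The genes that rose went from almost nothing to a large share of the RNA counted. In the 5 2-fold embryos the 322 genes together took 0.654%, 0.588%, 0.676%, 0.705% and 0.687% of all counts. In the 5 Moving embryos they took 58.9%, 48.6%, 51.5%, 40.2% and 16.5%, a mean of 43.1% ± 16.3 (SD, n = 5). Moving replicate 5 was the lowest embryo of its stage by this measure, and still far above the range at 2-fold. The genes were chosen on these libraries, so the shares describe the set and carry no test.

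The genes that fell formed the opposite pulse, less evenly spread over embryos. The 272 genes took 4.12%, 22.1%, 30.6%, 25.5% and 43.0% of the counts in the 5 2-fold embryos, a mean of 25.1% ± 14.1 (SD, n = 5). In the 5 Moving embryos they took 0.191%, 0.232%, 0.130%, 0.151% and 0.260%. The lowest 2-fold embryo, replicate 1, stood apart from the other 4 of its stage and was the lowest of the 5 in 180 of the 272 genes.

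**Figure D1:**
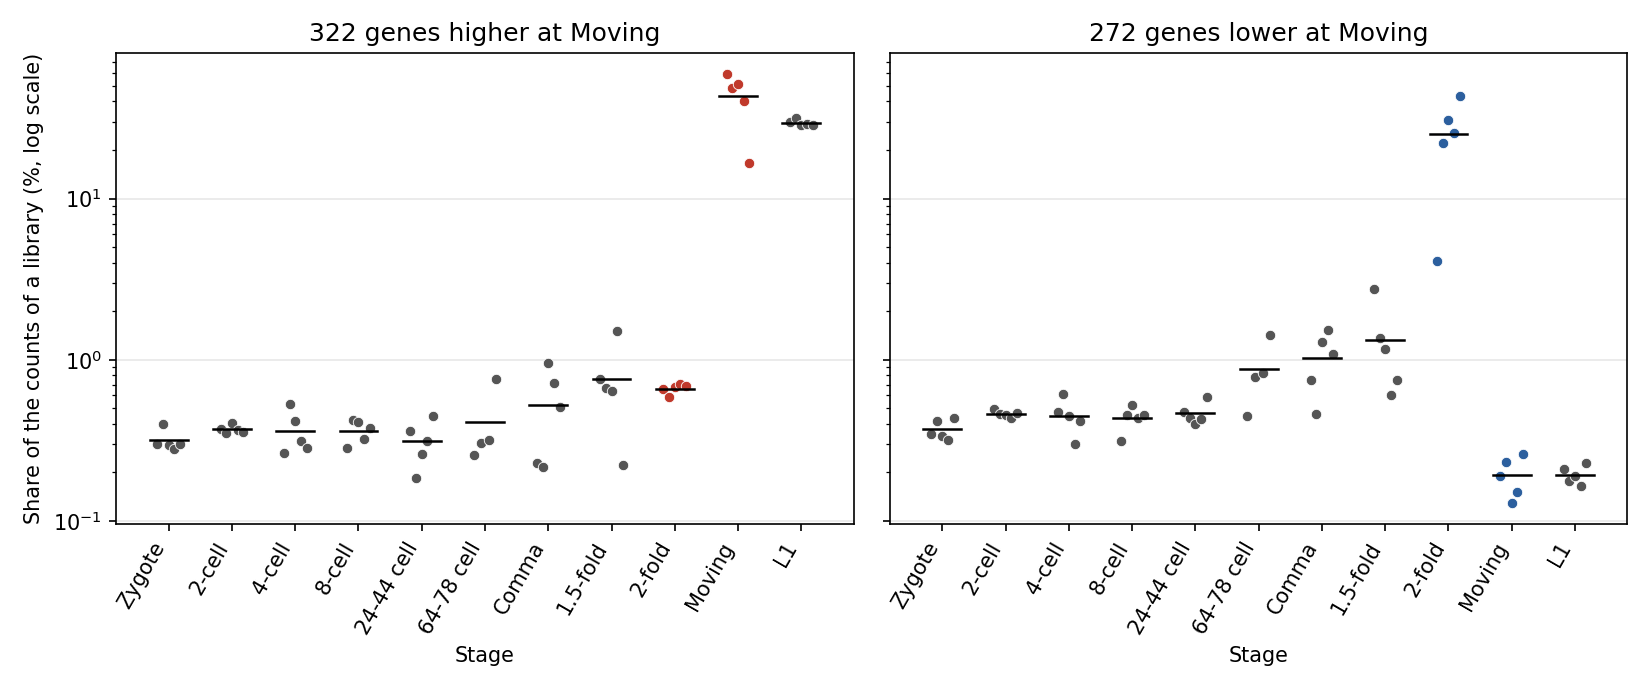
Share of a library's counts (percent, log axis) held by the 322 genes higher at Moving (left) and the 272 genes lower at Moving (right), against the 11 stages from Zygote to L1; each point is 1 embryo and the bars are stage means. The higher set stays at stage means of 0.313% to 0.756% up to 1.5-fold, reaches 43.1% at Moving and is at 29.4% at L1, while the lower set peaks at 25.1% at 2-fold and is at 0.193% and 0.194% at Moving and L1.

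Outside the 2 stages, the sets differed in how long they lasted. The 322 higher genes held 29.4% ± 1.28 (SD, n = 5) of the counts of the 5 L1 embryos, the next stage, and 0.756% ± 0.464 at 1.5-fold, the stage before. From Zygote to the 64-78 cell stage their stage means lay between 0.313% and 0.411%, and at Comma the mean was 0.524%. The 272 lower genes held 0.194% of the counts at L1 and 1.33% ± 0.856 (SD, n = 5) at 1.5-fold. They held 1.02% at Comma, and 0.371% to 0.873% before it. At L1 the summed share of the genes that fell was thus near its Moving value of 0.193%. The median of their stage means was lower, at 0.786 CPM against 3.75 CPM at Moving. Of the 272, 148 were under 1 CPM at L1 and 56 at Moving. The genes that rose still took at least 28.4% of the counts in each of the 5 L1 embryos. The make-up of the share of the higher set changed between these stages. The 4 higher genes with the highest Moving means took 5.66% to 42.9% of counts at Moving and 1.68% to 5.28% at L1.

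Genes at high CPM held much of these shares, though least so in 2-fold replicate 1. Of the higher genes, 38 reached a Moving mean of 1000 CPM (counts scaled to the library total in the usual way, not divided by gene length), and these took 53.7%, 43.3%, 45.6%, 30.4% and 12.2% of the counts in the 5 Moving embryos. In the 2-fold embryos the same 38 genes took 0.191% to 0.240%. Of the lower genes, 35 reached a 2-fold mean of 1000 CPM, and these took 1.05%, 16.6%, 25%, 20.4% and 35.2% there, and 0.0311% to 0.0633% at Moving. In 2-fold replicate 1 they were 1.05% of counts out of the 4.12% held by the whole lower set. Among all tested genes the share called rose with the mean level over the 10 embryos, from 0.185% of 7023 genes under 10 CPM to 20.6% of 1182 genes between 100 and 1000 CPM and 73.7% of 57 genes at 1000 CPM or more. The bins use the mean over both stages, which a large change itself raises, so the trend is only a description.

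The 4 higher genes with the highest means at Moving, looked at after their values were seen, rose and varied as a block. They lie on chromosomes 03, 07, 07 and 02 of the assembly, span 1450 to 1546 bp and together took 42.9%, 30.0%, 35.2%, 11.7% and 5.66% of all counts in the 5 Moving embryos. In the 5 2-fold embryos they took 0.00808%, 0.00152%, 0.0216%, 0.0169% and 0.00217%, and in the 5 L1 embryos 3.19%, 3.36%, 5.28%, 3.94% and 1.68%. Their log2 changes from 2-fold to Moving were 12.37 ± 2.21, 11.89 ± 1.99, 11.88 ± 1.97 and 11.73 ± 1.94 (SE), with edgeR adjusted p of 0.00568, 0.0039, 0.00366 and 0.00366. The total varied 7.58 times between Moving embryos, yet the first gene held 33.4% to 36.6% of it in every one of the 5, the second 25.4% to 27.3%, the third 19.1% to 22.6% and the fourth 15.6% to 20.5%. Whether the 4 are copies that share reads was not tested, since no sequence was used here.

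The 4 lower genes with the highest means at 2-fold were also looked at after their values were seen. Their median CPM was far higher at 2-fold than at 1.5-fold, Moving or L1. Stages before 1.5-fold were not looked at for these 4 genes. They lie on chromosomes 07, 03, 06 and 08, span 1004 to 1424 bp and took 0.0289%, 5.83%, 11.4%, 9.44% and 16.7% of the counts in the 5 2-fold embryos. They took at most 0.016% in any Moving embryo, at most 0.00610% in any L1 embryo and at most 0.0378% in any 1.5-fold embryo. Replicate 1 of 2-fold, with 400 counts on the 4 genes, was far below the other 4 embryos of its stage. For the first 3 genes it had 112, 87.3 and 59.9 CPM, above the 1.5-fold maxima of 5.62, 52.0 and 41.4 CPM, and for the fourth it had 29.6 CPM, below the 375 CPM of 1 1.5-fold embryo. Their log2 changes were -9.75 ± 2.21, -9.61 ± 1.71, -9.27 ± 1.88 and -10.66 ± 2.08 (SE), with edgeR adjusted p of 0.0242, 0.00568, 0.0126 and 0.0101.

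**Figure D2:**
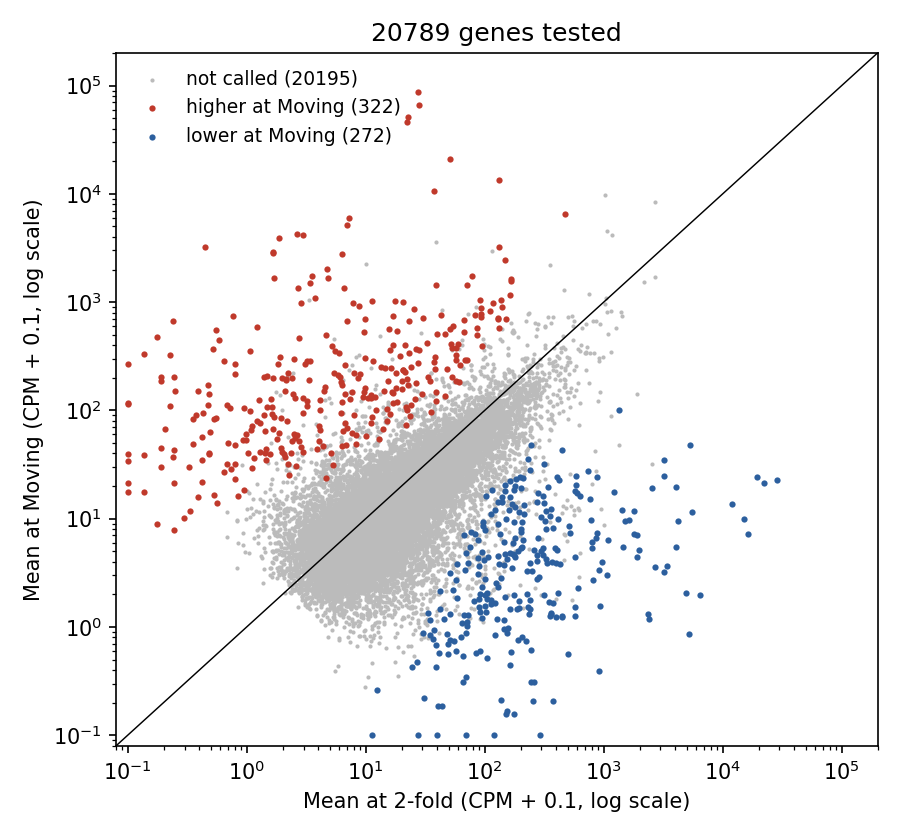
Mean level of each of the 20789 tested genes at 2-fold (x) and Moving (y), in CPM plus 0.1 on log axes, with genes higher at Moving, lower at Moving and not called in separate colours and the line of equal levels in black. The 38 higher genes above 1000 CPM at Moving and the 35 lower genes above 1000 CPM at 2-fold lie far from the line, and 1 cluster of 4 genes lies at the top, up to 87800 CPM.

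Higher genes were mostly low, not absent, at 2-fold. At 2-fold their mean level had a median of 4.9 CPM, with 76 of 322 under 1 CPM, 119 at 10 CPM or more and a maximum of 473 CPM. At Moving the median of their means was 163 CPM, and 211 had at least 100 CPM. Among the 322, 7 had no count in any 2-fold embryo and a further 29 had 1 to 3 counts over the 5. In 283 of the 322, each Moving embryo was above each 2-fold embryo in CPM, a pattern found in 1.9% of all tested genes in this direction. Moving replicate 5 was the lowest of its stage in 144 of the 322, and Moving replicate 4 was the highest in 177.

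The lower genes were the reverse in level. At 2-fold the median of their means was 193 CPM, and 204 of 272 had at least 100 CPM. At Moving the median was 3.75 CPM, with 56 under 1 CPM and 61 at 10 CPM or more. In 221 of the 272, each 2-fold embryo was above each Moving embryo in CPM, found in 4.2% of all tested genes. Of the 272, 6 had no count in any Moving embryo and 9 had 1 to 3 counts.

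The genes named next show the size of the change. Mi_18919 lies at bases 1239538 to 1240325 of the plus strand of chromosome 02 in the WHF4-1 assembly. It was chosen with 3 others by rule, as the 2 largest rises and 2 largest falls among genes that passed with every embryo of one stage above every embryo of the other. Its level in the 5 2-fold embryos was 0, 0, 0.451, 0.692 and 0.567 CPM, a total of 5 counts, and in the 5 Moving embryos it was 3620, 5320, 3560, 3310 and 223 CPM. The groups did not overlap, and Moving replicate 5 was the lowest embryo. The log2 change was 13.54 ± 1.51 (SE, n = 5 and 5, edgeR adjusted p = 0.000304), and the ratio of pooled levels was 9492, with an exact 95% interval of 4067 to 29234 that covers counting error only. At L1 the 5 embryos had 0, 1340, 0.406, 0 and 4230 CPM, so this gene was high in 2 of the 5 L1 embryos and at or near 0 in the other 3.

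Mi_36093, at bases 452945 to 453584 of the plus strand of chromosome 09, had 0 counts in all 5 2-fold embryos. In the 5 Moving embryos it had 267, 177, 189, 582 and 128 CPM, and in the 5 L1 embryos 107, 135, 139, 171 and 87.8 CPM. Every Moving and L1 embryo therefore had it, with L1 levels in a narrower range. From Zygote to 1.5-fold its stage means were at most 1.84 CPM. The log2 change from 2-fold to Moving was 13.17 ± 1.21 (SE, n = 5 and 5, edgeR adjusted p = 0.000331), and the pooled level was at least 1248-fold higher against a floor of 3 counts over the 5 2-fold embryos. The gene just before it, Mi_36092, on the same strand, was also called higher, and the pair covers bases 451672 to 453584.

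Mi_18519 was one of the genes that fell to 0. It lies at bases 2371105 to 2372458 of the minus strand of chromosome 36. The 5 2-fold embryos had 7.22, 150, 434, 412 and 465 CPM, with replicate 1 the lowest. All 5 Moving and all 5 L1 embryos had 0 counts, so the fall was at least 2308-fold against the floor of 3 counts over the 5 Moving embryos. The log2 change was -12.84 ± 1.6 (SE, n = 5 and 5, edgeR adjusted p = 0.00182). From Zygote to 1.5-fold its stage means lay between 0.933 and 11.9 CPM.

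Mi_40687 lies at bases 1237429 to 1240045 of the plus strand of chromosome 08 and was high in every 2-fold embryo. The 5 embryos had 1030, 6520, 1800, 2740 and 13900 CPM. In the 5 Moving embryos it had 0.335, 3.15, 0, 0.273 and 0 CPM, a total of 18 counts, and in the 5 L1 embryos it had 0. At 1.5-fold the 5 embryos had 0, 1.87, 0.881, 0 and 0 CPM, so the gene was at or near 0 at the stages next to 2-fold. Its stage means from Zygote to Comma were at most 14.9 CPM, with 51.7 CPM in Comma replicate 4. The log2 change was -12.35 ± 1.76 (SE, n = 5 and 5, edgeR adjusted p = 0.00154), and pooled levels were 8992 times higher at 2-fold than at Moving (exact 95% interval 5689 to 15173, counting error only). Of the 18 Moving counts, 15 came from replicate 2, and the log2 change was -14.34 without that embryo and -11.29 without 2-fold replicate 5.

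For these 4 genes the log2 change kept its sign in all 21 alternatives, which reused libraries of this comparison. The adjusted p ranged from 9.66e-30 to 0.144 for Mi_18919, from 2.37e-20 to 0.0808 for Mi_36093, from 2.42e-14 to 0.0968 for Mi_18519 and from 1.95e-21 to 0.111 for Mi_40687. None of the 4 passed within the over 80% class, where their log2 changes were 13.27, 13.52, -13.45 and -12.92 in the same order. Within the under 80% class Mi_18519 did not pass either (log2 change -12.23, edgeR adjusted p = 0.0968), and the other 3 did.

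**Figure D3:**
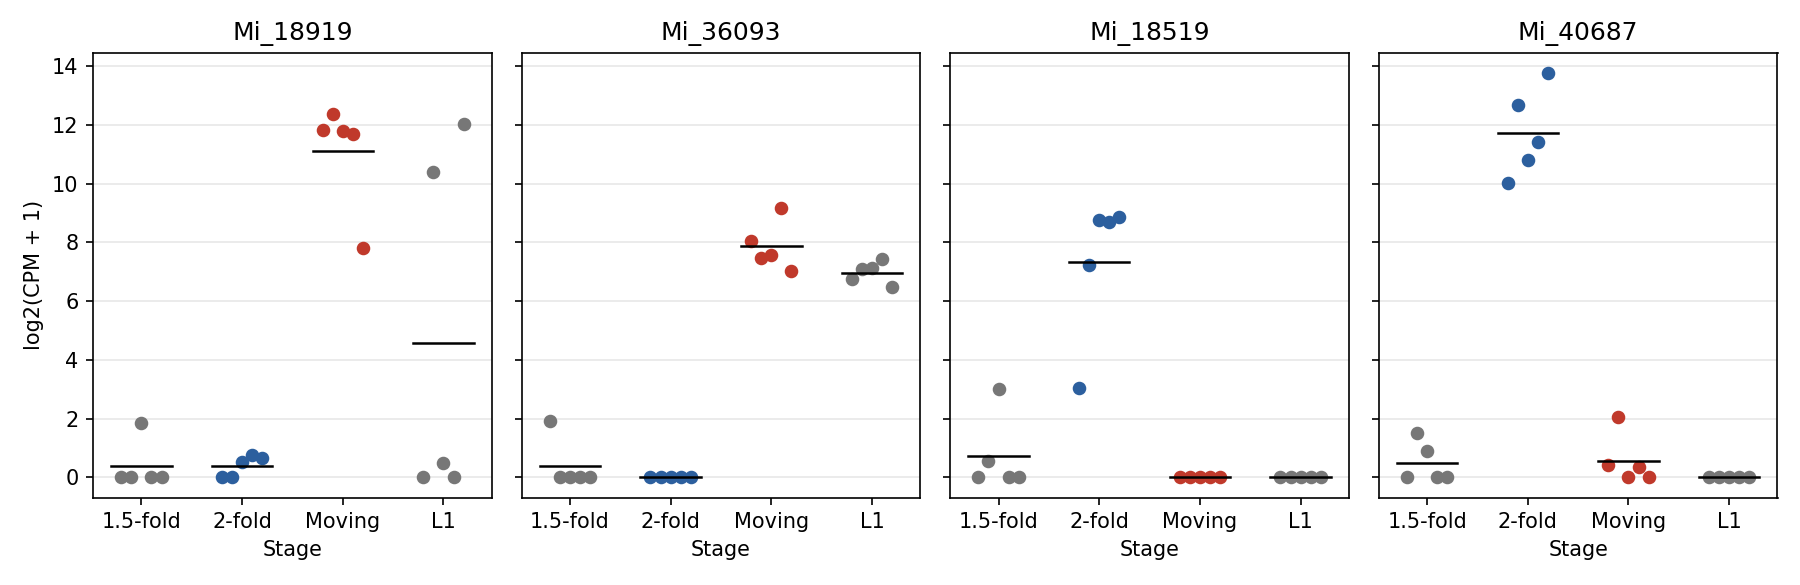
Level, as log2(CPM + 1), of Mi_18919, Mi_36093, Mi_18519 and Mi_40687 from 1.5-fold to L1, by stage; points are single embryos, 5 per stage, and short bars are means of the log2 values. The first pair are at 0 to 0.692 CPM at 2-fold and at 128 to 5320 CPM at Moving, and the other pair are at 7.22 to 13900 CPM at 2-fold and at most 3.15 CPM at Moving.

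The other 9 stages, none of which entered the comparison, were used to sort genes by when they were at their highest. Among these 9 stages, 244 of the 322 higher genes (75.8%) had their highest mean at L1, against 8.16% of all tested genes. At L1, 265 of the 322 were at 10 CPM or more (82.3%, against 37.8% of all tested genes) and 6 were under 1 CPM. Before the 2-fold stage 8 of the 322 were under 1 CPM at every stage from Zygote to 1.5-fold, and 154 reached 10 CPM at 1 or more of the stages from Zygote to 8-cell. Such counts over several stages were not taken for all tested genes. At single stages from Zygote to 8-cell, 25.5% to 32.6% of the 322 were at 10 CPM or more, against 53.4% to 61.5% of all tested genes. Moving itself was at least 10 times above each of the other 9 stages for 42 of the 322. Among the 272 lower genes, the highest of the other 9 stages was 1.5-fold for 72 (26.5%, against 10.7% of all tested genes), Comma for 55 (20.2%, against 17.4%) and L1 for 2 (0.735%, against 8.16%). At L1, 34 of the 272 were at 10 CPM or more (12.5%, against 37.8% of all tested genes) and 148 were under 1 CPM, against 4844 of the 20789 tested. The 2-fold mean was at least 10 times above each of the other 9 stages for 116 of the 272. The counts at 10 times above were not taken for all tested genes.

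Genes grouped by this period moved differently. Of the genes that peaked at L1 and reached 10 CPM there, 224 of 1536 were higher at Moving (14.6%) and 1 was lower (0.0651%), with a median log2 change of 1.15. Among genes at their highest at Comma or 1.5-fold, 15 of 4556 were higher (0.329%) and 103 lower (2.26%), with a median of -0.10. For the 24-44 and 64-78 cell stages the counts were 6 higher (0.133%) and 33 lower (0.733%) of 4504. For Zygote to 8-cell they were 35 higher (0.451%) and 79 lower (1.02%) of 7764, with a median of -0.02. A further 2429 genes were under 10 CPM at all 9 stages, of which 42 were higher (1.73%) and 56 lower (2.31%). These counts are descriptions without a test of the groups. The counts of the 3 earlier periods moved by over 1.5 times when a single library was left out. The 35 became 22 without 2-fold replicate 3, 21 without 2-fold replicate 4, 23 without Moving replicate 1 and 21 without Moving replicate 3. The 79 became 48 without 2-fold replicate 3 and 52 without 2-fold replicate 4. For the 24-44 and 64-78 cell stages, the 6 became 3 without 2-fold replicate 2 or 3, and the 33 became 19, 21 and 18 without 2-fold replicate 3, Moving replicate 2 and Moving replicate 3. For Comma and 1.5-fold, the 15 became 7 to 9 without 2-fold replicate 2, 3 or 4 or Moving replicate 1 or 3. The 103 became 65 without Moving replicate 1 and 67 without Moving replicate 3, and the 56 of the low class became 104 without 2-fold replicate 1. The 224 stayed between 169 and 243.

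**Figure D4:**
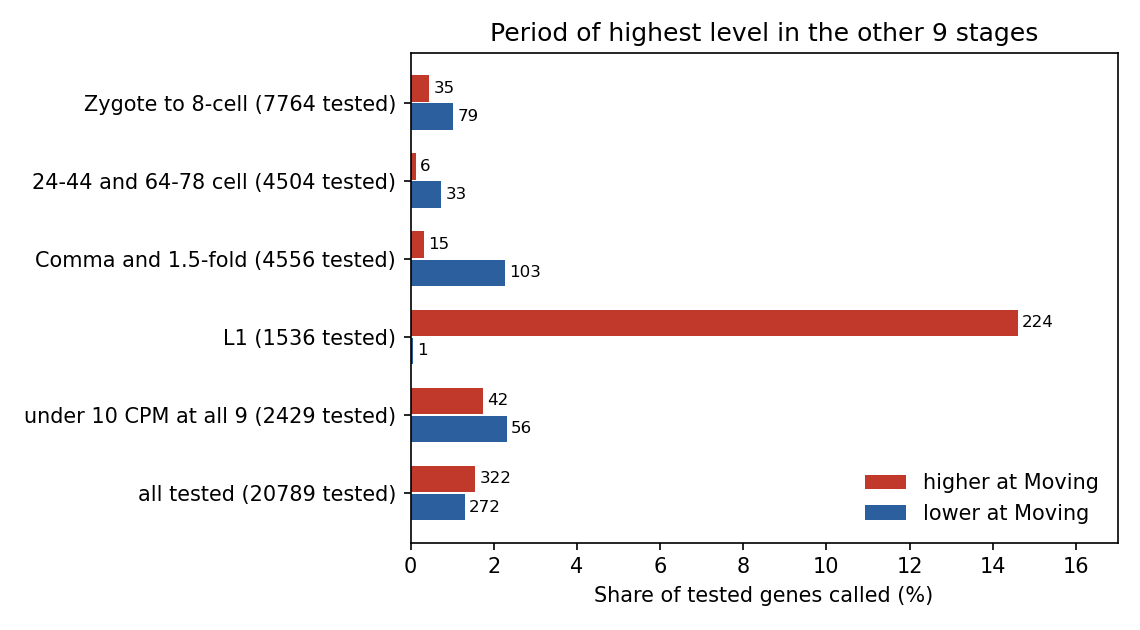
Share (percent) of tested genes called higher or lower at Moving, by the period of highest level in the other 9 stages; bars start at 0 and the number at each bar is the number of genes. Genes highest at L1 stand out with 14.6% higher and 0.0651% lower.

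The 10 embryos of 1.5-fold and L1 share no library with the comparison and gave a separate view of the same genes. From 1.5-fold to L1, 895 of 14807 tested genes were higher (6.04%) and 534 lower (3.61%) by the same edgeR test. Of the 322 genes higher at Moving, 260 were tested there, 157 were higher at L1 and 0 were lower, and 251 had a log2 change above 0. Their median was 4.53, against -0.46 over all genes tested. Of the 272 genes lower at Moving, 96 were tested there, 0 were higher at L1, 18 were lower, and 80 had a change below 0, with a median of -2.37. The other 176 of the 272 did not pass the filter on low counts at 1.5-fold and L1, and 62 of the 322 did not. Passing that filter favours the stage where a set is high. Of the 322, 117 had a mean of at least 10 CPM at 1.5-fold and 265 at L1, and of the 272, 132 and 34. The direction counts are therefore descriptions and not a test of the sets. The 2 steps on either side share libraries with the comparison. From 1.5-fold to 2-fold, 130 of 17951 tested genes were higher (0.724%) and 13 lower (0.0724%), and from Moving to L1 130 of 14811 were higher (0.878%) and 189 lower (1.28%).

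As whole transcriptomes, the embryos were nearer to others of their own stage than to those of the other stage. Over 31891 genes the mean Pearson r of log2(CPM + 1) was 0.633 within stages and 0.539 between them, a difference of 0.0941 (exact permutation of stage labels, 1-sided p = 0.00794, the smallest that 5 against 5 can give). Embryos of one stage still differed widely. The biological coefficient of variation was 1.03 at 2-fold and 1.10 at Moving, so a typical gene varied by about its own mean between embryos of a stage. Averaged over the other 4 embryos of its stage, the r of an embryo was 0.631 ± 0.0331 at 2-fold and 0.635 ± 0.0441 at Moving (SD, n = 5 each). Neither stage was shown to be more variable (difference 0.00455, exact 2-sided permutation p = 0.833).

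The 2 stages were set apart by the balance of their likeness to L1 and to 1.5-fold. The score of an embryo was its r with the mean of the 5 L1 embryos minus its r with the mean of the 5 1.5-fold embryos. It was -0.198, -0.113, -0.0959, -0.150 and -0.0410 in the 2-fold embryos, and 0.0306, 0.0240, 0.0594, 0.195 and 0.00258 in the Moving embryos. The 2 groups did not overlap in this score, while r with L1 alone overlapped, at 0.581 in Moving replicate 5 and 0.587 in 2-fold replicate 2. The mean r with L1 was 0.546 at 2-fold and 0.664 at Moving, and the mean r with 1.5-fold was 0.665 and 0.601. The mean score was -0.12 ± 0.0589 at 2-fold and 0.0623 ± 0.0769 at Moving (SD, n = 5), a difference of 0.182 (exact 2-sided permutation p = 0.00794, the smallest that 5 against 5 can give). Within the over 80% class the difference was 0.158 (p = 0.2, exact) and within the under 80% class 0.193 (p = 0.1, exact), where 0.1 is the smallest that 2 against 3 can give.

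Individual embryos showed a range within each stage. By the mean r with the embryos of each of the 11 stages, 2-fold replicate 1 was most like Comma (0.648, against 0.604 with its own stage), and the other 4 2-fold embryos were most like 2-fold. Moving replicate 4 was most like L1 (0.668, against 0.603 with its own stage), and the other 4 Moving embryos were most like Moving. Moving replicate 5 had the score nearest to 0 of its stage, and was also the lowest Moving embryo in the share of counts held by the 322 higher genes.

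**Figure D5:**
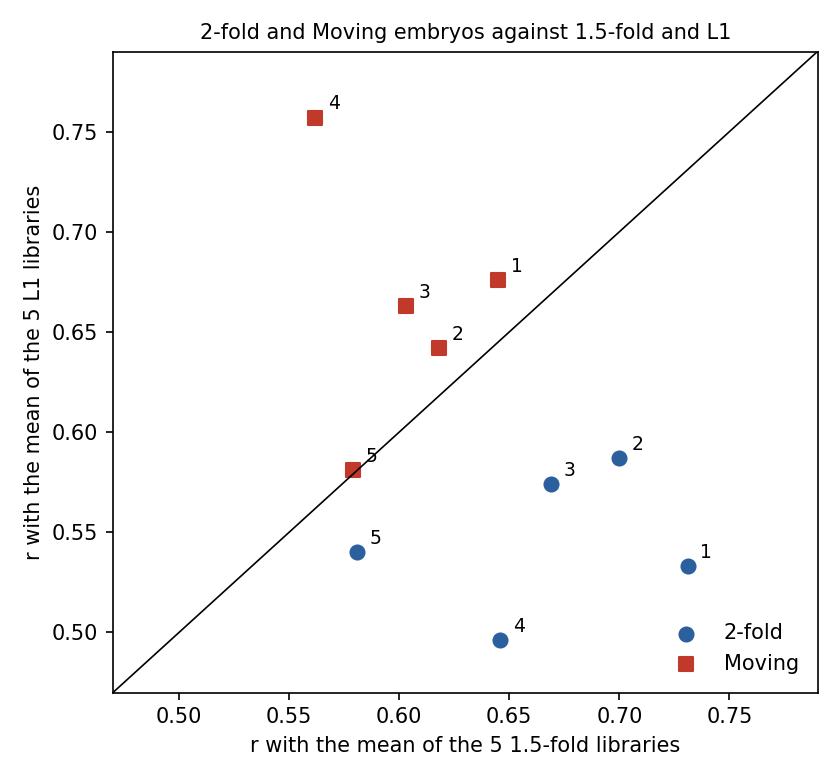
Pearson r of each embryo with the mean of the 5 L1 libraries (y) against its r with the mean of the 5 1.5-fold libraries (x); each point is 1 embryo numbered by replicate, in separate colours for 2-fold and Moving, and the line marks equal r. All 5 2-fold embryos lie below the line and all 5 Moving embryos above it, with Moving replicate 5 nearest to it at a score of 0.00258.

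The number of genes detected was not shown to differ. At 1 CPM or more, 28631, 24428, 23548, 27847 and 16417 genes were detected in the 5 2-fold embryos, and 25335, 28799, 18966, 17191 and 23419 in the 5 Moving embryos. The means were 24174 ± 4847 and 22742 ± 4715 (SD, n = 5), and the ranges overlapped (difference -1432, exact 2-sided permutation p = 0.675). The share of counts in a library's own 100 most abundant genes was 14.0%, 26.4%, 32.5%, 27.0% and 44.0% at 2-fold and 60.7%, 52.7%, 55.6%, 44.3% and 21.1% at Moving. The means were 28.8% ± 10.9 and 46.9% ± 15.6, a difference of 18.1 percentage points that did not pass (exact 2-sided permutation p = 0.0714). It was 24.5 points without Moving replicate 5 (exact p = 0.0159) and 21.9 points without 2-fold replicate 5 (exact p = 0.0476). Within the over 80% class it was 4.17 points (exact p = 0.7) and within the under 80% class 33.6 points (exact p = 0.1).

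Depth ranges overlapped between the stages, but mean depth was lower at 2-fold (2817704 counts) than at Moving (4251278 counts). The 2-fold replicates 1, 3 and 4 held 1385758, 2219731 and 1445484 counts, each below the lowest Moving library. They are the 2-fold libraries of the lower class of alignment rate, so in that class the depth ranges did not overlap. The 2-fold libraries held 1385758 to 5290319 counts and the Moving libraries 3315852 to 5963856, so that 3 counts correspond to 0.503 to 2.16 CPM. Thinned to the smallest total, the 10 libraries gave 348 higher and 308 lower genes of 14853 tested, with 280 and 222 shared with the main calls. No pair of embryos in a stage was a repeat of one library (lowest chi-square per degree of freedom 16.5).

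The called genes, the higher ones above all, had shorter median spans than the tested genes as a whole, which is given as a description with no test. The genomic span from first to last base, introns included, had a median of 1358 bp for the 322 higher genes (quartiles 798 and 2664) and 2296 bp for the 272 lower genes (1324 and 4626), against 2788 bp (1610 and 4795) for all tested genes. The called genes were spread over the genome: 40 of the 44 sequences with tested genes held at least 1, and the share called was 1.02% to 5.67% over the 36 sequences with at least 200 tested genes. Gene orientation was near even, with 169 of 322 higher and 130 of 272 lower genes on the plus strand.

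Some genes that rose were neighbours. Neighbours were counted once for each called gene that they adjoin, so a gene can count more than once. Of 425 tested neighbours of higher genes counted in this way, 36 were also higher (8.47%, against 1.55% of all tested genes). Of 342 tested neighbours of lower genes, 10 were also lower (2.92%, against 1.31%). The higher genes formed 13 runs with 31 genes, of which 10 runs were on 1 strand, and the lower genes formed 5 runs of 2. The table holds no overlapping gene models (0 pairs), but counting was not stated to use strand, and copies that lie side by side may share reads, which was not tested.

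There were 5 runs of 3 higher genes, each on 1 strand. On chromosome 39, bases 2623036 to 2625933 held genes with means of 1.61, 93.1 and 92.6 CPM at 2-fold and 1680, 881 and 727 CPM at Moving. On the same chromosome, bases 2484167 to 2487548 held genes that went from 86.1, 0.968 and 25.4 CPM to 497, 354 and 862 CPM. On chromosome 09, bases 293838 to 297411 held genes that went from 37.3, 17.8 and 11.2 CPM to 282, 162 and 1030 CPM. At L1 the genes of these 3 runs had 289, 244 and 503 CPM, then 309, 79.4 and 132 CPM, then 130, 296 and 791 CPM, so that 8 of the 9 were below their Moving mean. The run on chromosome 38 (bases 254532 to 258051) went from 150, 15.4 and 17.9 CPM to 705, 187 and 220 CPM, with 372, 331 and 166 CPM at L1. The run on chromosome 06 (bases 1049045 to 1055481) went from 0.32, 2.36 and 0 CPM to 21.5, 141 and 21.3 CPM, with 19.8, 153 and 3.19 CPM at L1.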

How the data were processed

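Whole single embryos of *M. incognita* were sequenced with Smart-seq2. The authors used fastp (version 0.20.1) for trimming, HISAT2 for alignment to the WHF4-1 assembly and HTSeq for counting, and the deposited values are whole-number counts with no normalization. Strand use in counting, and how reads with several matches were treated, is not given in the sources used here. Whether near-identical copies shared or lost reads was not tested. The gene positions come from the same deposited table. The tables of *D. destructor* and *H. glycines* were not used here.

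Counts of the 10 libraries were filtered with filterByExpr, scaled with TMM and tested with the quasi-likelihood test of edgeR (version 4.0.16) in R (version 4.3.3), with Benjamini-Hochberg adjustment over all genes tested and a threshold of 0.05. The SE is the absolute log2 change divided by the square root of F. Where the libraries of a stage held no count, a fold was computed against 3 counts over the stage. Exact 95% intervals of pooled counts cover counting error only, since PCR reads without molecular identifiers are not independent molecules. Similarity was Pearson r of log2(CPM + 1) over genes that averaged 1 CPM or more at 1 of the 2 stages, and single values were tested by exact permutation of the stage labels. Python (version 3.11.15) and scipy (version 1.17.1) were used.

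Nothing says that embryos came from separate cultures. Each p therefore sets the stage difference against the spread between these embryos, and does not extend to other cultures. The comparison, gene groups and tests were chosen with earlier results of these data known. Named genes were the 2 largest rises and falls among genes with an adjusted p under 0.05, at least 10 CPM at the higher stage and no overlap between stages. Lists of functional genes and cell markers could not be matched to IDs and were not used here. Alternatives were DESeq2 (version 1.42.0), RLE factors, other filters, thinning, a block by replicate number, all 54 libraries in 1 fit, a change of at least 2-fold, the class of alignment rate in the study's tables (over or under 80%) as a covariate or alone, other measures, pseudocounts and detection levels, and the omission of each library. Scaling by library totals only was chosen after seeing the data.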

Additional observations from a re-analysis of the deposited data

Results flagged for a closer look

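Of 22 groups of 5 embryos taken for Dixon's ratio, 1 had a sample far from the others. The groups of Mi_36093 at 2-fold and Mi_18519 at Moving were 0 in every embryo and could not be flagged. The flagged sample was the level of Mi_40687 in Moving replicate 2, at 3.15 CPM. The nearest embryo was at 0.335 CPM and the stage median was 0.273 CPM (ratio 0.894, against a critical value of 0.71). Chance flags about 1 in 20 such groups where values are normally distributed, which counts near 0 are not. The flagged group held 2, 15, 0, 1 and 0 counts. All 5 Moving embryos remained far below the lowest 2-fold embryo, at 1030 CPM.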

How the results depend on the processing

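The numbers of called genes depended on the settings. So did the share of calls that were higher, at 54.2% in the main fit, 40.2% with library totals and 84.3% within the under 80% class. No gene passed in opposite directions under any alternative. All alternatives reused libraries of this comparison, and the over 80% class called 0 genes, so this is not a separate check of direction. The main calls came from 20789 tested genes, and the number tested also changed with the setting. DESeq2 called 708 higher and 706 lower of 29304, with 316 and 271 shared with the main calls. Without a filter 522 were higher and 496 lower of 40341, with 313 and 265 shared. With all 54 libraries in 1 fit 115 were higher and 63 lower of 32703, with 83 and 50 shared. No source at hand states that replicate numbers pair embryos. Deviations of same-numbered embryos had r of -0.186 to 0.0146, and 0 of 5 2-fold embryos were most like their own number. With 5 embryos per stage this check cannot exclude pairing. With the replicate block 170 were higher and 98 lower. Only libraries over 80% aligned gave 0 and 0 of 23721 tested, and only those under 80% gave 150 and 28 of 22343. Each of these fits set 2 embryos of one stage against 3 of the other. Without 1 library at a time, 233 to 372 were higher and 189 to 347 lower.

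The difference in within-stage r, small in the comparison of all 10 embryos, reversed with Spearman rho (-0.0172), all genes with at least 1 count (-0.00591), thinning (-0.00465) and the over 80% class (-0.0687), and leaving out 1 library gave -0.032 to 0.0422. Leaving out 1 library reversed it 5 times: -0.0118 without 2-fold replicate 1, -0.0212 without 2-fold replicate 5, and -0.032, -0.0125 and -0.00288 without Moving replicates 1, 2 and 3. The within minus between r was 0.113 (exact p = 0.1) over 80% and 0.091 (exact p = 0.1) under 80%, the L1-ward score 0.158 (exact p = 0.2) and 0.193 (exact p = 0.1), and genes detected differed by 2714 (exact p = 0.7) over 80%, the opposite sign. The share in the 100 most abundant genes differed by 14.4 to 24.5 points when 1 library was left out.

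With a minimum of 1 CPM for a period, the genes highest at L1 that were lower at Moving numbered 2, and the class under the minimum had 0 higher, 1 lower and a median log2 change of -2.18. Leaving out 1 library gave, for Zygote to 8-cell, 21 to 49 higher and 48 to 97 lower, for 24-44 and 64-78 cell 3 to 9 and 18 to 38, for Comma and 1.5-fold 7 to 22 and 65 to 105, for L1 169 to 243 and 1 to 3, and for genes under 10 CPM 30 to 56 and 47 to 104. The cause of these shifts was not tested. Depth limits the lowest levels, where 3 counts are 0.503 to 2.16 CPM.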
